A study of Mus musculus with 32 samples.

Results

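CD4+ T cells of mice labelled as lacking Nur77 were compared with wild-type (WT) cells after both had been activated for 12 h through CD3 and CD28 in the presence of XCT790. Nur77 is the protein of Nr4a1, an orphan nuclear receptor, and XCT790 is an inverse agonist of another orphan receptor, ERR-alpha (gene Esrra). The comparison holds 8 of the 32 RNA-seq libraries of the series, 4 labelled Nur77KO and 4 labelled WT, and covers all 12332 genes with enough counts to be tested out of 24302 in the files. Both groups were C57BL/6J by label, spleen and lymph nodes (inguinal and axillary) were the source of the cells, and XCT790 was given at 10 µg/ml. How the Nr4a1 allele was made and the ages of the mice are not given in the sources used here. Nor is it given whether libraries of one group came from separate mice. The p-values therefore measure the spread between libraries within groups, estimated in a joint fit of all 32 libraries. The other 24 libraries hold unstimulated cells, stimulated cells without compound and stimulated cells with a compound coded CompA, at 4 per genotype, and they serve here to place the XCT790 result.

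Nur77 is encoded by an immediate-early gene of the T cell receptor response. Its protein binds DNA through the NBRE element, is known as a brake on T cell activation and metabolism, and is high in anergic and exhausted T cells. ERR-alpha, with its PGC-1 coactivators, drives genes of mitochondrial respiration and fatty acid oxidation, and an inverse agonist lowers its activity. Activated CD4+ T cells take up helper, follicular helper or regulatory programmes, each with its own cytokines, transcription factors and homing receptors.

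The 8 libraries held 17518331 to 21028637 gene counts each, with 13079 to 13290 genes detected in WT and 13329 to 13844 in KO-labelled cells. All 4 Y-linked genes on the list were present in every library and Xist had 0 counts in all 8. The defining genes of CD4+ T cells, Cd3e and Cd4, were abundant in every library, and the summed level of 10 CD4+ T cell markers was 4220 to 5090 CPM (counts scaled to a common library size) in WT and 4160 to 4930 CPM in KO-labelled cells. Spread was larger on the KO side: over the 7862 genes that averaged 10 CPM or more the median SD of log2 CPM was 0.155 in KO-labelled and 0.0999 in WT libraries. KO-labelled replicate 2 stood apart in B and plasma cell markers, whose sum was 371 CPM there against 39, 71.6 and 80.9 CPM in the other KO-labelled libraries and 64.8 to 72.9 CPM in WT. Myeloid and dendritic markers summed to 11.4 to 24.4 CPM in WT and to 19.8, 66.2, 40.3 and 38.7 CPM in KO-labelled replicates 1 to 4, and CD8 T and NK markers to 48.2 to 56.9 and 64 to 98.2 CPM. In these bulk samples, more or fewer cells of a type and more or less RNA per cell cannot be told apart.

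Nr4a1 itself was not lower in the libraries labelled KO. It stood at 162, 178, 187 and 186 CPM in WT and at 324, 364, 198 and 252 CPM in KO-labelled cells. Every KO-labelled library lay above every WT library, and the fitted log2 fold change (KO-labelled over WT) was 0.67 (SE 0.23, adjusted p = 0.059, edgeR quasi-likelihood test with Benjamini-Hochberg adjustment), a difference that passed with DESeq2 (adjusted p = 0.047) and under 4 other settings (0.021 to 0.18 over all alternatives). Nr4a1 (chr15:101253902-101274795, GRCm38) was counted over all its exons, so the counts do not show whether a functional protein could be made. The other family members were not called: Nr4a2 had a log2 fold change of -0.10 (SE 0.26, adjusted p = 0.85) and Nr4a3 one of -0.07 (SE 0.17, adjusted p = 0.84). Esrra, the gene of the receptor that XCT790 targets, stood at 25.6 to 26.5 CPM in WT and at 26.2, 26.7, 16.9 and 22.9 CPM in KO-labelled cells (log2 fold change -0.17, adjusted p = 0.47). The groups are therefore called by their labels throughout.

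With XCT790 present, 1173 of the 12332 tested genes (9.51%) passed an adjusted p of 0.05, and most of them were higher in KO-labelled cells. Of these, 913 were higher (7.4% of tested genes) and 260 lower (2.11%). The rises were larger than the falls, with a median of 2.08-fold among genes called higher and 1.27-fold among genes called lower, and 491 rises but 27 falls reached 2-fold. Over all tested genes the median log2 fold change was 0.03. The 4 KO-labelled libraries all lay above the 4 WT libraries for 1331 genes (10.8%) and all below them for 1088 genes (8.82%), and 798 of the genes called higher and 235 of those called lower were among them. The count of calls moved with single libraries: it fell to 735 without WT replicate 1, to 660 without WT replicate 3 and to 750 without KO-labelled replicate 3, was 915 without KO-labelled replicate 2, and rose to 1242 without WT replicate 2 and to 1277 without KO-labelled replicate 1. The share of calls that were higher, 77.8%, was 69.3 to 85.8% with the other scalings and 63.8% with DESeq2.

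**Figure D1:**
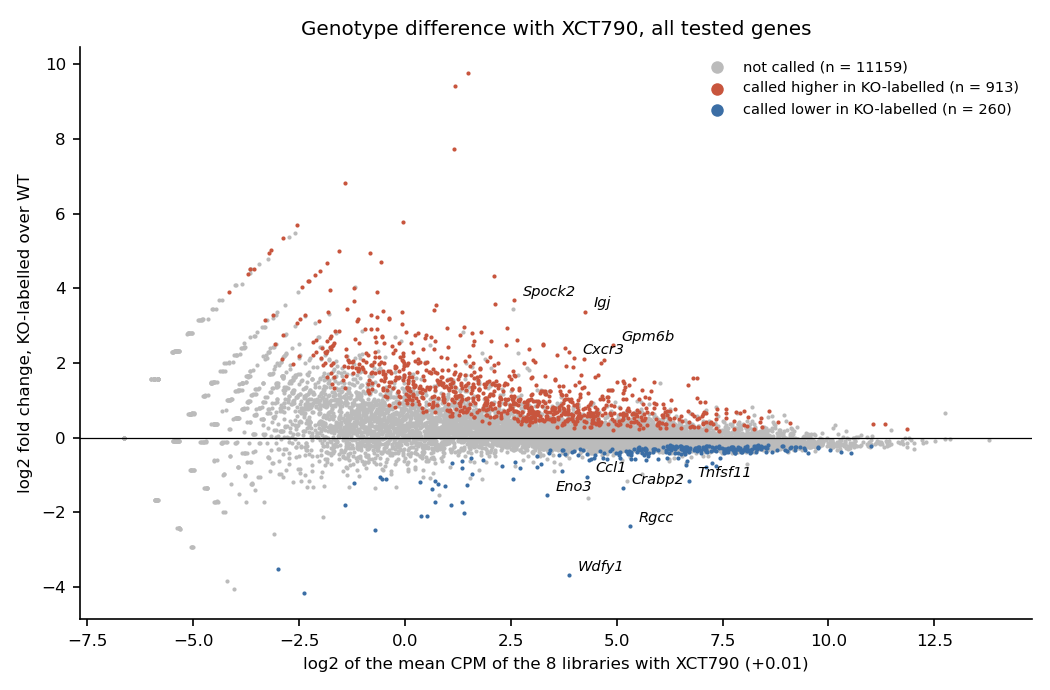
Each point is 1 of the 12332 tested genes, with the log2 of its mean CPM over the 8 XCT790 libraries (horizontal) and its fitted log2 fold change, KO-labelled over WT (vertical); red and blue mark genes called higher and lower at an adjusted p under 0.05. The 913 red points spread over a wide range of folds at low and middle levels, while most of the 260 blue points lie close below 0 at high levels, with Wdfy1 and Rgcc apart from them.

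Among genes that averaged 10 CPM or more in at least one group, the largest fall was that of Wdfy1, a FYVE and WD40 domain adaptor of endosomes (chr1:79702262-79776143). It stood at 30, 25, 27.1 and 27 CPM in WT and at 2.19, 2.19, 2.42 and 1.69 CPM in KO-labelled cells, a log2 fold change of -3.68 (SE 0.13, adjusted p = 4.9e-18). All 4 KO-labelled libraries were near one low level, and no library came close to the other group. Rgcc, a regulator of the cell cycle, was at 55.7 to 73.5 CPM in WT and at 12.9, 21.1, 7.81 and 10.2 CPM in KO-labelled cells (log2 fold change -2.36, SE 0.32, adjusted p = 1.6e-05). Eno3, the muscle form of enolase, fell from 13 to 18.5 CPM to 4.54 to 5.98 CPM (log2 fold change -1.53, SE 0.14, adjusted p = 3.7e-08). Crabp2, which carries retinoic acid in the cell, fell by 1.34 on the log2 scale (adjusted p = 0.014, 0.058 without KO-labelled replicate 2). A pair of ligands followed: Tnfsf11 (RANKL), a TNF family cytokine, was at 162, 87.2, 175 and 155 CPM in WT and at 68.7, 71.7, 53.4 and 64.9 CPM in KO-labelled cells (log2 fold change -1.16, adjusted p = 0.002), and the chemokine Ccl1 fell by 1.04 (adjusted p = 0.0049). The inhibitory receptor Cd160 fell by 0.77, the semaphorin Sema4c by 0.89 and Mrpl19, a protein of the mitochondrial ribosome, by 0.74 on the log2 scale. Mrpl19 was close to constant within WT, at 123 to 127 CPM, and lay at 63.7 to 88.1 CPM in KO-labelled cells. Lad1 (-0.79), Dse (-0.71) and 1110032F04Rik (-0.76) completed the 12 largest falls. Leaving out 1 library ended the call in 5 cases for Lad1, 3 for 1110032F04Rik and all 8 for Dse. The Dse call held under only 2 of 17 alternative settings.

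Among the 12 largest rises, that of Spock2, an extracellular proteoglycan (chr10:60106257-60135198), came first. It was at 0.351, 0.971, 0.568 and 1.5 CPM in WT and at 5.23, 13.7, 9.82 and 15.8 CPM in KO-labelled cells, a log2 fold change of 3.69 (SE 0.42, adjusted p = 1e-06). Gpm6b, a proteolipid membrane protein, rose from 7.44 to 11.9 CPM to 34.3, 47.8, 48.2 and 73.1 CPM (log2 fold change 2.48, SE 0.26, adjusted p = 3.5e-07). The transcription factor c-Maf (Maf), which drives Il10 and Il21, was at 2.61 to 3.35 CPM in WT and at 7.96, 13.4, 21.9 and 21.5 CPM in KO-labelled cells (log2 fold change 2.52, SE 0.41, adjusted p = 0.00015). Blimp-1 (Prdm1), a transcription factor of effector differentiation, followed with 2.12 to 2.68 CPM in WT and 6.57, 9.77, 15.8 and 18.8 CPM (log2 fold change 2.38, adjusted p = 0.00018). For both factors, KO-labelled replicates 1 and 2 were lower than replicates 3 and 4, and all 4 were above WT. Cxcr3, the receptor of interferon-induced chemokines, was tight in both groups at 5.4 to 6.44 and 19.8 to 30.7 CPM (log2 fold change 2.13, SE 0.17, adjusted p = 1.2e-09), and Cxcr4, the receptor of Cxcl12, rose by 2.11 (adjusted p = 0.0039). The same set held Nt5e (CD73, which makes adenosine; 2.41), S100a6 (a calcium-binding protein; 2.49), Emp1 (2.61), Scg2 (secretogranin; 2.21) and Ttc39c (2.31), all on the log2 scale. Igj, the joining chain of secreted antibodies, passed with 3.38 (adjusted p = 0.02), but its level of 103 CPM in KO-labelled replicate 2, against 6.14 to 15.4 CPM in the other 3, moved with the B and plasma cell markers of that library, and without it the adjusted p was 0.2.

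**Figure D2:**
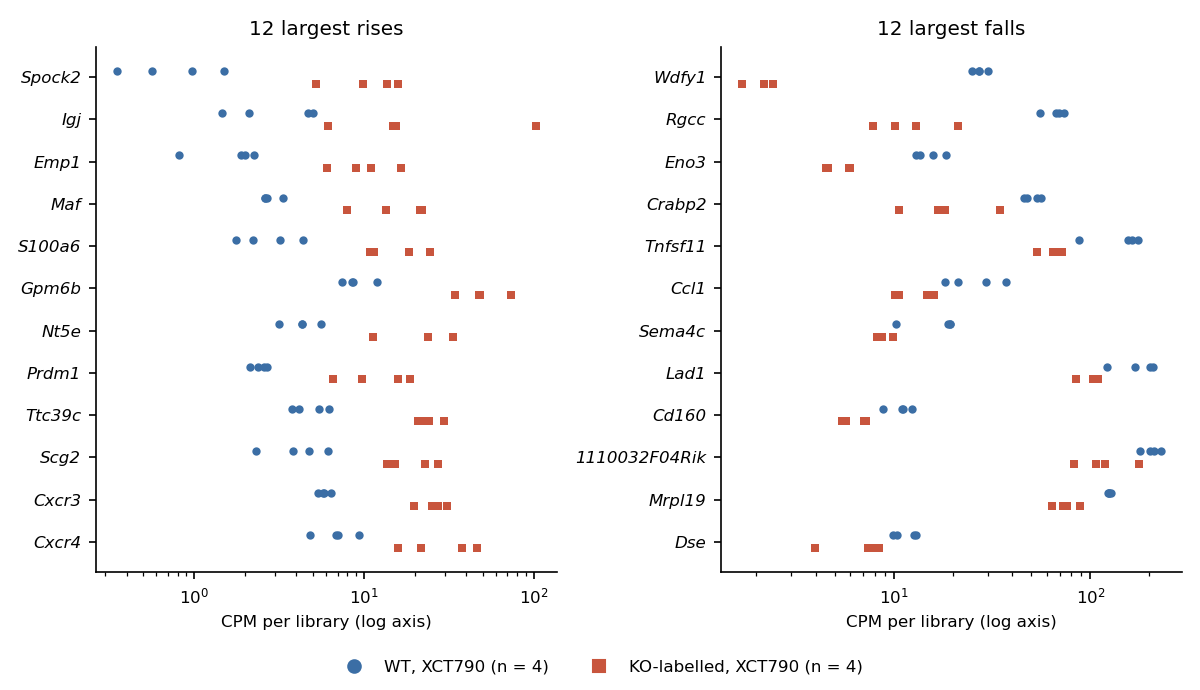
CPM per library on a log axis for the 12 largest rises and the 12 largest falls by the naming rule, with blue circles for the 4 WT and red squares for the 4 KO-labelled libraries with XCT790. The rule admits only genes whose 2 groups do not overlap; the gap is widest for Wdfy1 among the falls, and Igj has 1 KO-labelled library, at 103 CPM, far from the other 3.

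Of the gene lists drawn up for helper T cell programmes, those of follicular helper and IL-10 genes and of regulatory T cell markers had the highest medians. Markers of B and plasma cells and of myeloid and dendritic cells had medians of similar size, 1.16 and 0.97. Without KO-labelled replicate 2 these 2 medians were -0.07 and 0.72. The part of such cells in the helper lists was not tested. Of 17 tested follicular helper and IL-10 genes, 11 rose and none fell, with a median log2 fold change of 1.19. Over all tested genes, 7.4% were called higher and 2.11% lower. Il10, an anti-inflammatory cytokine, was at 1.05, 1.64, 1.25 and 0.966 CPM in WT and at 6.46, 11.1, 8.4 and 11.8 CPM in KO-labelled cells (log2 fold change 2.94, SE 0.37, adjusted p = 6.1e-06). Il21, the cytokine by which follicular helper cells sustain B cells, was at 1.31 to 1.77 CPM in WT and at 5.29, 6.93, 10.4 and 12.8 CPM in KO-labelled cells (log2 fold change 2.49, adjusted p = 0.00018). Angptl2, an angiopoietin-like secreted protein, rose by 1.92 (adjusted p = 5.4e-05) and the adhesion receptor Slamf6 by 0.81 (adjusted p = 1.6e-05). Bcl6, the lineage factor of follicular helper cells, was at 0.28 and did not pass, nor did Pdcd1 at -0.02. The count of 11 was the same without KO-labelled replicate 2 and was 9 to 11 over all single-library omissions.

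Of 16 tested regulatory T cell markers, 10 rose and none fell, against 7.4% and 2.11% of all tested genes, with a median of 1.08. Foxp3, the lineage factor of regulatory T cells, was at 18.7, 27.9, 19.3 and 19.8 CPM in WT and at 32.8, 51.9, 69.4 and 73.7 CPM in KO-labelled cells (log2 fold change 1.41, SE 0.26, adjusted p = 0.00064). Nrp1, a marker of thymus-derived regulatory T cells, was at 7.65 to 11.6 CPM in WT and at 28.1, 40.3, 50.3 and 49.6 CPM in KO-labelled cells (log2 fold change 2.07, adjusted p = 5e-06), and the integrin chain Itgae (CD103) rose by 2.00 (adjusted p = 0.00011). Ctla4, the inhibitory receptor, rose by 1.07 (adjusted p = 0.00028). Il2ra (CD25) and Tnfrsf18 (GITR), which activated conventional T cells also carry, were at 0.13 and 0.25 and did not pass. The count was 10 without KO-labelled replicate 2 and 10 to 13 over all omissions.

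Among 24 tested transcription factors of helper lineages 7 rose and none fell, and among 22 effector cytokines 8 rose and 1 fell. The shares over all tested genes were 7.4% called higher and 2.11% called lower. Besides Maf, Prdm1 and Foxp3, the inhibitor of DNA binding Id2 was higher, at 15 to 26.3 CPM in WT and 44.9 to 59.9 CPM in KO-labelled cells (log2 fold change 1.47, adjusted p = 9.3e-06). The lineage factors Tbx21 (0.26) and Gata3 (0.54) did not pass. Tgfb1 rose by a small but even amount, from 131 to 140 CPM to 164 to 183 CPM (log2 fold change 0.38, SE 0.07, adjusted p = 0.00059). Ifng rose (1.37), while Il2 (-0.22), Il4 (0.19) and Il17a (0.37) did not pass. The median log2 fold change was 0.49 over the factors and 0.43 over the cytokines, and the count of risen cytokines was 7 without KO-labelled replicate 2 but 3 without KO-labelled replicate 3.

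Migration and adhesion receptors rose in 11 of 26 cases and fell in none (median 0.60). The counts of this paragraph are to be read against 7.4% of all tested genes called higher and 2.11% called lower. Besides Cxcr3 and Cxcr4 these included Itgb7, a chain of gut-homing integrins, which rose from 47.7, 64.8, 40.2 and 55.5 CPM to 111, 76.2, 109 and 119 CPM (log2 fold change 1.00, adjusted p = 0.00058). Of the 12 tested chemokines, Cxcl10 (1.58, adjusted p = 8.7e-06) and Ccl5 (2.06, adjusted p = 0.0011) rose and Ccl1 and Ccl17 fell. Ccl17 was under 0.4 CPM in every library. Among cytokine receptors and their feedback inhibitors 6 of 28 rose and none fell, among them Il1r2, the decoy receptor of interleukin 1 (2.00, adjusted p = 0.00022), Il18r1 (1.88), Il18rap (1.30) and Il10ra (1.26).

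Inhibitory receptors and anergy genes rose in 6 of 21 cases, with Cd160 as the 1 that fell. For this list and the next, the shares over all tested genes were 7.4% called higher and 2.11% called lower. Nrn1 (neuritin), an anergy-linked surface protein, was at 52.8 to 70.9 CPM in WT and at 151, 245, 148 and 173 CPM in KO-labelled cells (log2 fold change 1.61, SE 0.25, adjusted p = 8.9e-05), and Tigit rose by 1.28 (adjusted p = 0.0025). Pdcd1, Lag3 and Havcr2 did not pass. In the costimulatory and TNF receptor family 7 of 24 members rose, led by Tnfrsf25 (0.76), Tnfrsf26 (1.03), Tnfrsf8 (CD30; 1.78) and Cd86 (1.05), and 3 fell by small amounts, Cd27 (-0.28), Cd226 (-0.26) and Cd40lg (-0.56, adjusted p = 0.049).

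Interferon-stimulated genes rose in 16 of 35 cases and fell in none, against 7.4% and 2.11% of all tested genes, with a median of 1.04. Oas1a, which makes the activator of RNase L, was at 0.668 to 0.858 CPM in WT and at 2.56, 2.01, 3.24 and 5.11 CPM in KO-labelled cells (log2 fold change 2.14, SE 0.32, adjusted p = 6.5e-05). Gbp3, a guanylate-binding protein, was at 22.2 to 27.7 and 35, 46.1, 58.3 and 60 CPM (log2 fold change 1.04, adjusted p = 0.00011). The RNA sensor RIG-I (Ddx58) rose by 1.40 (adjusted p = 0.001) and Oasl1 by 1.80 (adjusted p = 0.0017). The summed level of the list did not separate the groups in full, at 2080, 2710, 2330 and 2340 CPM in WT and 3160, 2050, 3850 and 3580 CPM in KO-labelled cells, since KO-labelled replicate 2 was lower than every other library. The count of 16 was the same without that library and was 11 to 16 over all omissions.

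Counts of called genes in the core machinery of T cell activation are set beside 7.4% of all tested genes called higher and 2.11% called lower. Of 28 T cell receptor signalling genes none rose (4 without WT replicate 2) and 1 fell, Ubash3a (-0.33, adjusted p = 0.033), a phosphatase family member that restrains the receptor, with a median of 0.08. Of 36 immediate-early and activation factors 2 rose, Fosl2 (1.04, adjusted p = 0.00018) and Egr1 (0.71, adjusted p = 0.045), and none fell, a share close to that of all genes. Cd69 (-0.01), Myc (-0.15) and Irf4 (0.08) did not pass.

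Growth and mitochondrial lists had medians slightly below 0, and the counts of members that fell are to be read against 2.11% of all tested genes called lower. All 32 genes of ribosome biogenesis and RNA polymerase I had a negative fold change, with a median of -0.20, and 4 fell: Wdr12, Polr1e, Gar1 and Pes1, by 0.23 to 0.35. Wdr12 stood at 212, 194, 211 and 206 CPM in WT and at 172, 164, 138 and 172 CPM in KO-labelled cells (log2 fold change -0.35, SE 0.10, adjusted p = 0.021). Of 47 genes of the mitochondrial ribosome and biogenesis 3 fell, Mrpl19, Mrps22 and Mrps5 (median -0.20), and of 28 genes of the TCA cycle and pyruvate entry 4 fell (median -0.13). Those 4 encode subunits of pyruvate dehydrogenase (Pdha1, -0.28; Dlat, -0.27; Dld, -0.31) and of succinyl-CoA synthetase (Sucla2, -0.36). Pdha1 was at 325 to 352 CPM in WT and at 257 to 297 CPM in KO-labelled cells (SE 0.07, adjusted p = 0.0079). None of 75 oxidative phosphorylation genes and none of 64 cytosolic ribosomal protein genes passed in either direction, with medians of -0.18 and -0.15. These medians remained negative with each of the 3 other scalings, and single-library omissions left 0 to 5 fallen genes of ribosome biogenesis and 3 or 4 of the TCA list.

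Of 22 genes listed as ERR-alpha targets, 1 rose, 1 fell and 20 did not pass, with a median of -0.17. Over all tested genes, 7.4% were called higher and 2.11% lower. The fall was in Acadm, the medium-chain acyl-CoA dehydrogenase (62.1 to 69.4 CPM in WT, 47.9 to 58.2 CPM in KO-labelled cells; -0.30, adjusted p = 0.022), and the rise in Cpt1a, which admits fatty acids to mitochondria (14.1 to 17.4 and 19.8 to 27.3 CPM; 0.64, adjusted p = 0.022). Leaving out 1 library ended the Acadm call in 3 cases (largest adjusted p = 0.072) and the Cpt1a call in 5 (0.08). KO-labelled replicate 2 was among these for both genes, at adjusted p = 0.065 and 0.053. Among 29 glycolysis, lactate and hypoxia genes 2 rose, the prolyl hydroxylase Egln3 (1.24, adjusted p = 0.0011) and Aldoc (2.04, adjusted p = 0.015), and none fell. That share of rises was close to the 7.4% of all tested genes.

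Cell cycle lists moved unevenly, and their counts are to be read against 7.4% of all tested genes called higher and 2.11% called lower. Of 38 DNA replication genes 2 fell, the primase subunit Prim1 (-0.48) and the sliding clamp Pcna (-0.32), and none rose (median -0.16), whereas of 25 mitosis and spindle genes 3 rose, Prc1 (1.73), Ccnb2 (1.76) and Ube2c (1.40), and none fell (median 0.86). The count of 3 was 5 without KO-labelled replicate 2 and 1 without WT replicate 1, 3 or 4 or KO-labelled replicate 3 or 4. The mitosis sum was 117, 117, 107 and 105 CPM in WT and 144, 95, 197 and 209 CPM in KO-labelled cells, so that replicate 2 was again the lowest. Neither replication call held without that library, and each was lost in 6 of the single-library omissions. Among 22 G1 genes 6 rose and 1 fell: the retinoblastoma gene Rb1 rose (0.73, adjusted p = 0.00022), as did the kinase inhibitor genes Cdkn2b (1.47) and Cdkn2a (1.82) and E2f2 (0.91), and Ccnd2, cyclin D2, fell from 1360 to 1500 CPM to 1000 to 1150 CPM (-0.38, adjusted p = 0.0079). Of 24 p53 and apoptosis genes 3 rose and 1 fell: the pro-apoptotic Bcl2l11 (Bim) fell (-0.54, adjusted p = 0.0095) and the rises included Pmaip1 (Noxa; 0.99, adjusted p = 0.0089) and Birc3 (0.29). Of the heat shock genes 2 of 19 fell, the mitochondrial chaperonin Hspd1 (-0.41, adjusted p = 0.0071) and Dnaja1 (-0.23, adjusted p = 0.037).

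**Figure D3:**
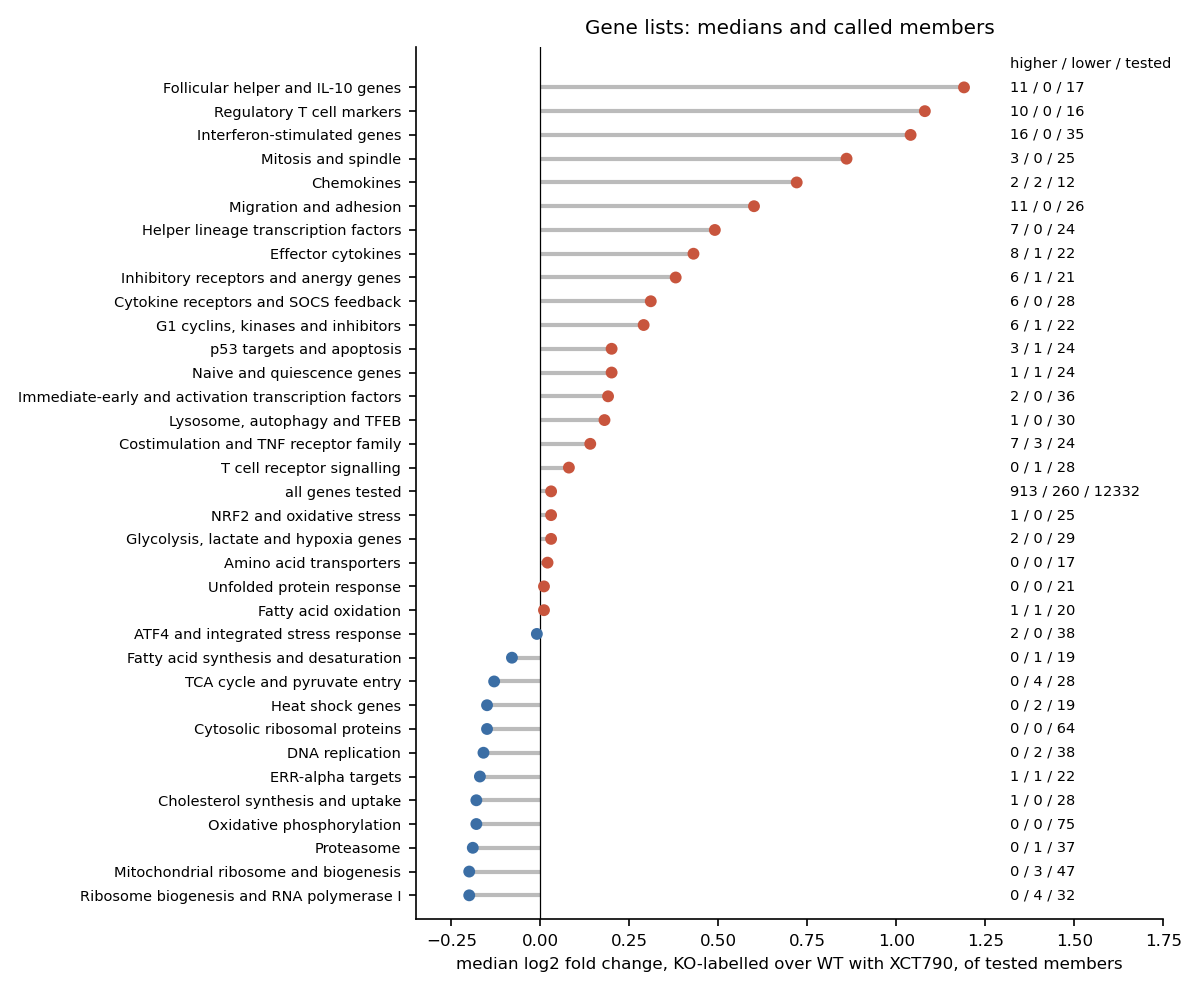
Median log2 fold change (KO-labelled over WT with XCT790) of the tested members of each list drawn, with the numbers called higher, called lower and tested at the right. Lists of cell type markers, sex-linked genes and NR4A and ERR receptors are not drawn. Follicular helper, regulatory and interferon lists stand at 1.04 to 1.19 and growth lists near -0.20, against 0.03 for all genes. Among the lists not drawn, markers of B and plasma cells had a median of 1.16 (-0.07 without KO-labelled replicate 2). Those of myeloid and dendritic cells had 0.97 (0.72 without it).

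Marker genes of other cell types moved as follows, against 7.4% of all tested genes called higher and 2.11% called lower. Of 14 tested CD8 T and NK markers 4 rose, Cd8b1 (0.78), Gzmk (2.81), Nkg7 (0.76) and Prf1 (0.72), and none was called lower. Fold changes in the list ran from -1.28 to 2.81, and Gzmk and Prf1 reached at most 2.51 and 3.85 CPM. The defining gene Cd8a did not pass, at 3.22 to 4.94 CPM in WT and 3.26, 21.3, 4.02 and 6.09 CPM in KO-labelled cells. The NK receptor Ncr1 had 0 to 6 counts in every library. Of 24 myeloid and dendritic markers 3 rose, Ly6c2, Flt3 and Itgam, all under 5 CPM in every library, and of 18 B and plasma cell markers 1 rose, Igj. Without KO-labelled replicate 2 these counts were 2, 1 and 0. The medians of the 3 lists were 0.47, 0.97 and 1.16, with 10, 19 and 17 members above 0, and without KO-labelled replicate 2 they were 0.33, 0.72 and -0.07. Hbb-bs had 0 counts in all 8 libraries. The part of other cells in the differences of the T cell lists was not tested.

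Promoter sequence was searched for the Nur77 element NBRE (AAAGGTCA) and for an ERR element (TCAAGGTCA), on both strands of RefSeq windows from 250 bases before to 50 after the gene start (GRCm38.p6). The 2 motifs share the letters AGGTCA. Windows with an NBRE made up 1.7% of all 27025 genes in the table and 1.19% of tested genes, and were found for 2 of 664 genes called higher that have a window (Guca1a and Pea15a, 0.301%) and for 3 of 198 called lower (Dctd, Hspd1 and Naa50, 1.52%). The ERR element was found for 0.466% of all genes, for 0.319% of tested genes, for 5 of those called higher (Cd84, Rhog, Sgk1, Sgms1 and Zfp414, 0.753%) and for none called lower. Of the 94 genes named by rule that have a window, Hspd1 was the 1 with an NBRE. Its nearest base lies 167 bases before the start, and the stretch is shown since Hspd1 is among the abundant genes that fell, at 1820, 1470, 1750 and 1680 CPM in WT and 1310, 1190, 1210 and 1350 CPM in KO-labelled cells. The 60 bases (chr1:55088073-55088132, minus strand, capitals for the NBRE, which reads on the opposite strand) are:
Hspd1: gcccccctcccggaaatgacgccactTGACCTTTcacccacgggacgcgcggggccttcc
A match in these letters is a description of the window and not a binding site.

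Around Nr4a1 on chromosome 15, 61 genes within 2 Mb were tested and 9 were called (14.8%), 8 higher and 1 lower. Prr13 (chr15:102459170-102462806) was at 30.4, 36.9, 32.4 and 31.9 CPM in WT and at 71.3, 71.7, 64 and 71 CPM in KO-labelled cells (log2 fold change 1.08, SE 0.11, adjusted p = 1.1e-07). Rarg, a retinoic acid receptor, rose by 0.98 (adjusted p = 0.00023), and Itgb7 lies in the same stretch. The gene that fell, Acvrl1, a TGF-beta family receptor (chr15:101128522-101145336), was at 1.87 to 2.55 CPM in WT and 0.32 to 0.77 CPM in KO-labelled cells (log2 fold change -2.09, adjusted p = 3.8e-05). By chromosome the share of called genes was 7.52% (chromosome 19) to 12% (X), leaving out the 4 tested genes of Y, of which none was called.

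Some of the largest differences were in genes that were near 0 in all 4 WT libraries with XCT790. These genes were picked out after their values were seen. With a limit of 3 counts over the 4 WT libraries with XCT790 and a KO-labelled mean of at least 1 CPM, 6 called genes qualified. No gene did so the other way round. Phyhip (chr14:70457517-70468826) had 1 count in WT and 343 in KO-labelled cells, at 5.07, 3.73, 4.2 and 4.76 CPM (adjusted p = 1.3e-10). Ccnb1ip1, a regulator of meiotic crossing over (chr14:50789249-50795728), had 0 counts in all 4 WT libraries and was at 0, 5.03, 5.71 and 7.16 CPM in KO-labelled cells, at least 104-fold higher on average than 3 counts over the WT group allow. BC018473 (chr11:116752167-116757883) had 0 counts in WT and was at 5.07, 0, 7.53 and 9.92 CPM, at least 131-fold higher. In all 4 libraries of a run, the 4 consecutively numbered libraries that hold 1 of each condition, the pattern was the same: Ccnb1ip1 had 0 counts in every library of KO-labelled run 1 and of the 4 WT runs, and 14 to 174 counts in every library of the other 3 KO-labelled runs. BC018473 had 0 to 5 counts in KO-labelled run 2 and at least 68 in each library of the other 3. St6galnac2, next to BC018473 on chromosome 11 (116676703 to 116695782), was also at 0 with XCT790 in KO-labelled run 2. It was at 1.55, 3.65 and 2.3 CPM in the other 3. Without stimulation, however, St6galnac2 had 70 counts in KO-labelled run 2 and 65 to 154 counts in the WT runs. Ecel1 and Tmem181b-ps were the remaining 2, and they reached 11 and 16 counts in single WT libraries of other conditions. The KO-labelled runs share a genotype label, yet Ccnb1ip1 and BC018473 differed between them. No label says what a run stands for, and each run holds 1 genotype. For every gene of this comparison, evenly shifted ones such as Wdfy1 and Phyhip included, the Nr4a1 genotype and other differences between the mice or runs therefore cannot be told apart.

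Most of the genes higher with XCT790 were also higher with CompA, a comparison that uses other libraries. With CompA 718 genes were higher (5.82%) and 232 lower (1.88%). Of the 913 genes higher with XCT790, 544 were also higher with CompA (59.6% of the XCT790 list and 75.8% of the CompA list), and of the 260 lower, 123 were also lower (47.3% and 53%), while 1 gene was called in opposite directions. All 12 largest rises and all 12 largest falls were called in the same direction with CompA. Libraries of the same run deviated together between the 2 compounds, so these 2 comparisons do not count as independent replicates.

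A test of whether the genotype difference itself differed between the 2 compounds called 0 of 12332 genes (0%) in the edgeR fit without runs, with 165 genes at an unadjusted p under 0.05 and a smallest adjusted p of 0.12. DESeq2 called 2 genes. With the run as a block, 63 of 11159 genes (0.565%) were called, and of the genes of the ATF4 stress programme 17 of 37 tested were higher and none lower, against 44 higher and 19 lower among all tested. ATF4 is the transcription factor by which cells answer amino acid shortage and other stress, and its targets make and import amino acids. Asns, asparagine synthetase, had log2 ratios of XCT790 over CompA of -0.49, -0.44, -0.29 and -0.55 in the WT runs and of 0.31, 0.39, 0.47 and 0.58 in the KO-labelled runs, a difference of 0.89 (SE 0.09, adjusted p = 8.5e-05 with the run block). Cth, cystathionine gamma-lyase, had -1.35, -1.48, -1.25 and -1.73 in WT and 0.06, 0.14, 0.12 and -0.11 in KO-labelled runs (difference 1.60, adjusted p = 0.00012). Trib3, a pseudokinase induced by ATF4, differed by 1.20 and Gpt2, an alanine transaminase, by 1.21. Each of these WT runs lay below each KO-labelled run. Between genotypes under XCT790 the list had 2 of 38 higher, against 7.4% of all tested genes, and none lower. Its median of -0.01 changed sign with the scaling. With CompA none was higher and 15 were lower (median -0.38), against 5.82% and 1.88% of all tested genes. Outside the list, Pck2 (1.36) and Gys1 (0.74), the mitochondrial phosphoenolpyruvate carboxykinase and glycogen synthase, were called with the run block and were also the 2 genes that passed with DESeq2 and with the run as a random block. Names in this paragraph were picked after their values were seen.

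**Figure D4:**
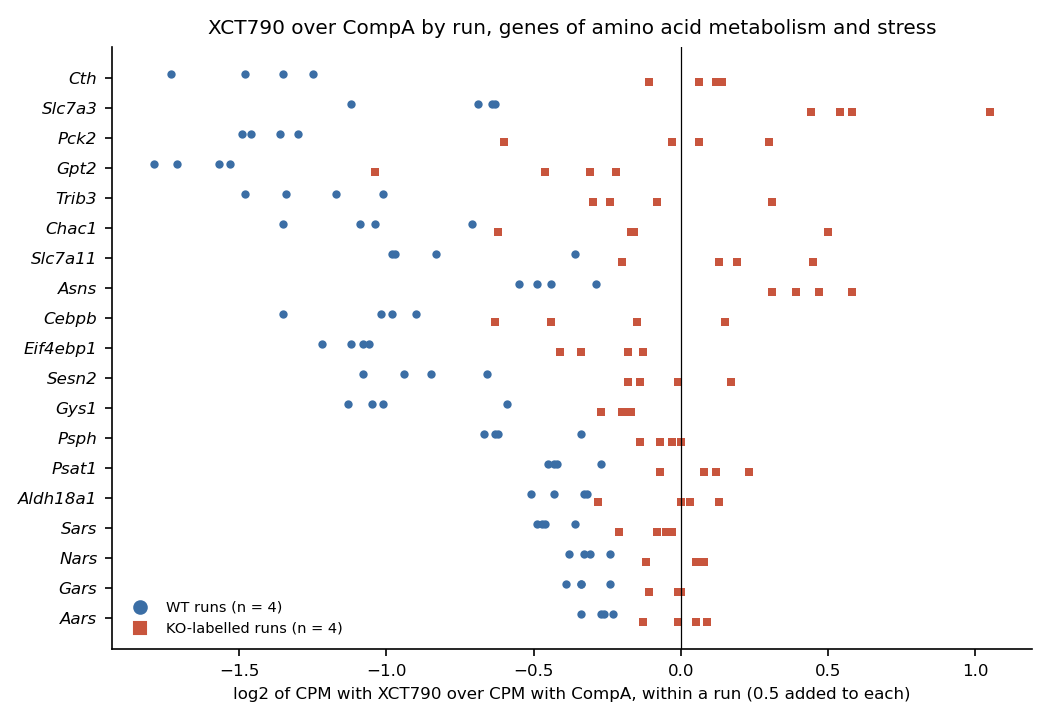
Log2 ratio of CPM with XCT790 over CPM with CompA within each run (0.5 CPM added to both), for the 17 ATF4-list genes called with the run block and for Pck2 and Gys1. Blue circles are the 4 WT runs and red squares the 4 KO-labelled runs; for each gene shown the 4 WT runs lie to the left of the 4 KO-labelled runs.

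Fewer calls were in common with stimulated cells without compound. There 902 genes were higher (7.31%) and 2209 lower (17.9%), and of the 913 genes higher with XCT790, 218 were higher (23.9%, and 24.2% of the stimulated list), 51 of the lower genes were lower (19.6% and 2.31%) and 249 were called in opposite directions. The test of whether the genotype difference itself differed between XCT790 and plain stimulation called 3049 genes (24.7%). In unstimulated cells 1543 genes were higher (12.5%) and 2911 lower (23.6%), with 349 higher (38.2% and 22.6%) and 128 lower (49.2% and 4.4%) in common with XCT790 and 52 opposite. In all 4 conditions 141 genes were called higher and 23 lower. Myeloid and dendritic markers summed to 649 to 1810 CPM in the stimulated WT libraries without compound. The stimulated KO-labelled libraries without compound had 27.3 to 48.1 CPM, and any library with XCT790 at most 66.2 CPM. In stimulated cells 19 of 24 such markers were called lower in KO-labelled cells and none higher, against 17.9% and 7.31% of all tested genes. The part of this in the 2209 lower calls, the 249 opposite calls and the 3049 calls of the difference test was not tested.

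Named genes differed in how they behaved over the conditions, and the examples were picked after their values were seen. Wdfy1, Rgcc, Eno3, Il10, Il21 and Nrn1 were called in the same direction in all 4 conditions, with Il10 at 2.57 in unstimulated, 3.01 in stimulated, 2.94 in XCT790-treated and 2.79 in CompA-treated cells (log2 fold changes). For none of these 6 was the genotype difference called as different between XCT790 and plain stimulation (adjusted p of 0.4 to 0.94, and 0.12 to 0.96 with the run as a fixed or random block). Prdm1 did not pass that test (adjusted p = 0.076) but did with the run as a fixed block (0.0043). Maf, Cxcr3, Cxcr4, Nt5e and Spock2 had a larger difference with XCT790 than in stimulated cells. For Maf the log2 fold change was 2.52 with XCT790 and -0.59 in stimulated cells (difference 3.11, adjusted p = 9.1e-05), for Cxcr3 2.13 and 0.29 (difference 1.85, adjusted p = 8.8e-07), and for Cxcr4 2.11 and -0.81 (difference 2.93, adjusted p = 0.0013). Itgb7 was called in opposite directions, 1.00 with XCT790 and -1.75 in stimulated cells (difference 2.75, adjusted p = 1.4e-08), as was Ddx58, at 1.40 and -1.98. Of the 12 largest rises, 6 were called higher in stimulated cells and 6 differed between the 2 conditions, and of the 12 largest falls, 6 were called lower and 2, Dse and Mrpl19, differed.

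**Figure D5:**
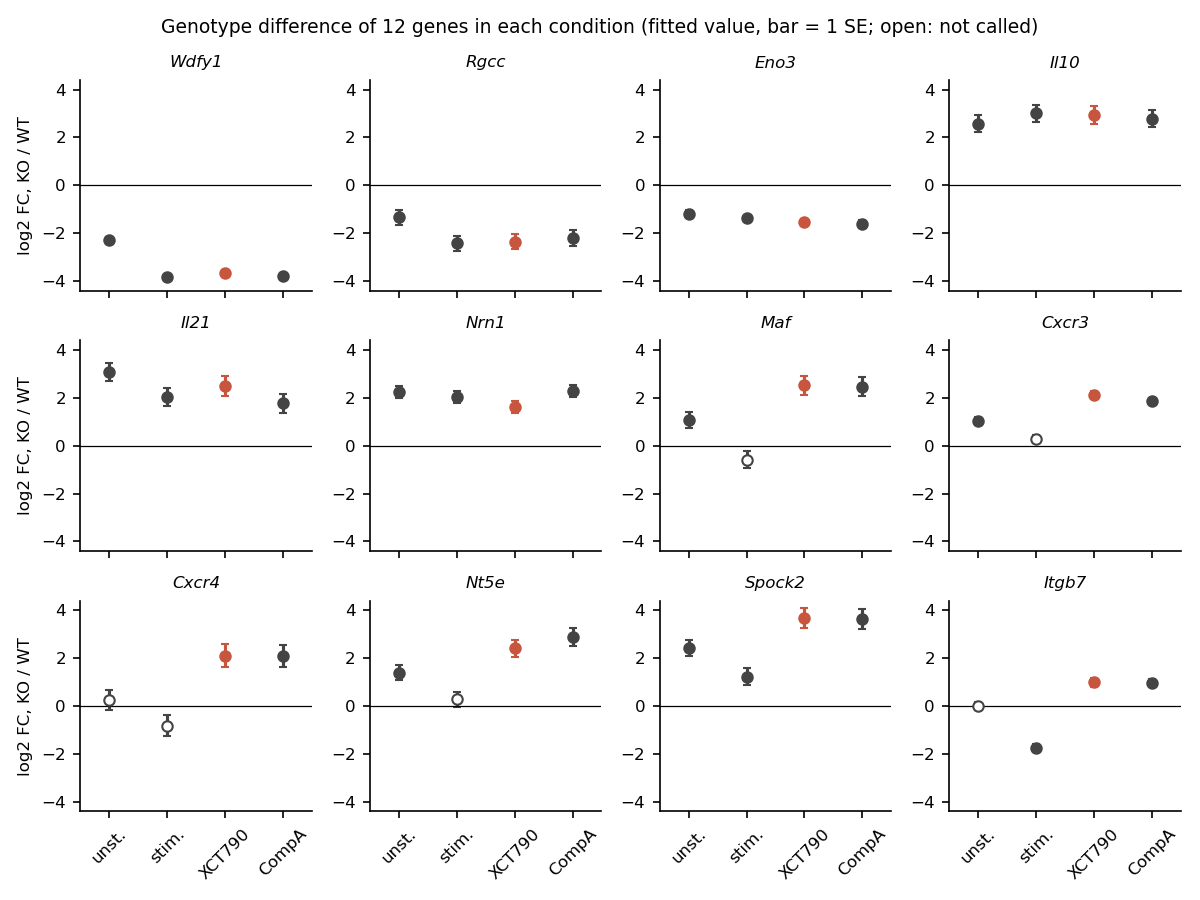
Fitted log2 fold change, KO-labelled over WT, with 1 SE, for 12 genes in unstimulated (unst.), stimulated (stim.), XCT790-treated (red) and CompA-treated cells; filled symbols passed an adjusted p of 0.05 and open ones did not. Wdfy1 to Nrn1 hold one direction in all 4 conditions, while Maf, Cxcr3, Cxcr4 and Nt5e are near or below 0 in stimulated cells and at 1.85 or more with either compound.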

How the data were processed

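PolyA RNA was sequenced from directional libraries, per the labels' protocols. The authors deposited 1 file of raw HTSeq counts per gene for each library; Trimmomatic 0.36, HISAT2 2.1.0, HTSeq 0.9.1 and the mm10 build are named in the submitters' processing notes. Reads that matched no gene made up 5.93 to 7.3% and ambiguous ones 1.14 to 1.37% in the 8 libraries with XCT790, and reads without a unique place were left out of the counts, which bears on genes with near-identical copies such as Hspd1 and interferon-induced families. Genes were placed on GRCm38 by symbol. Counts of all 32 libraries were fitted in edgeR 4.0.16 (R 4.3.3; TMM factors, filterByExpr on the 8 groups, quasi-likelihood F test, two-sided, Benjamini-Hochberg adjustment over 12332 genes), with a gene called at an adjusted p under 0.05. CPM values are scaled by the TMM factors. Alternatives used DESeq2 1.42.0 and limma 3.58.1 (voom), other scalings and filters, run blocks and single-library omissions. The comparison and the gene lists were chosen with earlier results of these data known, so list counts carry no test of their own. Genes were named by a rule: the nuclear receptor genes, the 12 largest rises and falls among called genes that averaged 10 CPM or more in 1 group and did not overlap, at most 4 members of each list by smallest adjusted p and those against its direction, the 3 largest of each interaction and direction, and called genes within 2 Mb of Nr4a1. List members beyond the rule, the genes near 0 in WT with XCT790 and those of the run block were picked after their values were seen. Results for a few list members are not reported here. Library numbers in the titles give 8 runs of 4 consecutive libraries, 4 runs per genotype; deviations from group means correlated between XCT790 and CompA libraries of a run at 0.27 to 0.68 in WT and 0.63 to 0.81 in KO-labelled runs, all above 0.1, so the run block is given for that comparison. XCT790 and plain stimulation libraries correlated at 0.59 to 0.8 in KO-labelled runs but at 0 to 0.31 in WT runs, with 2 of those not above 0.1, so that comparison is given without the block. The fit was tested on simulated counts.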

Additional observations from a re-analysis of the deposited data

Results flagged for a closer look

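The XCT790 groups of each gene named and of each summed list gave 262 sets of 4 libraries whose values were checked. Of these sets, 25 had 1 library far from the other 3. The rule marks about 1 in 20 sets of independent, normally distributed values. The sets here share libraries and many genes were named by their values, so that rate is no benchmark for the 25. In KO-labelled libraries the single high values were Igj at 103 CPM and the B and plasma cell sum at 371 CPM, both in replicate 2, and also Aldoc at 3.91, Pdcd1 at 141, Tnfrsf26 at 56.5 and Ccl17 at 0.0457 CPM. The single low values there were Cpt1a at 19.8, Gar1 at 202, Mrps22 at 57.9, Mrps5 at 58.9 and Prr13 at 64 CPM. In WT libraries the single high values were Aldoc at 0.971, Birc3 at 98.6, Egr1 at 76.7, Foxp3 at 27.9, Gata3 at 16.8, Il4 at 1.21, Maf at 3.35 and Pcna at 517 CPM and the CD4+ T cell marker sum at 5090 CPM, and the single low values were Dlat at 113, Myc at 369, Pdcd1 at 79.8, Sema4c at 10.3 and Tbx21 at 49.4 CPM.

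For 46 of the genes named, the genotype difference with XCT790 differed from that in stimulated cells without compound (edgeR interaction test, adjusted p under 0.05), and the values that follow are log2 differences of the differences, positive where the KO-labelled level was relatively higher with XCT790. Surface and homing molecules gave Cxcr3 1.85, Cxcr4 2.93, Itgae 3.16, Itgb7 2.75, Nrp1 1.41, Nt5e 2.13, Slamf6 0.58, Cd86 1.17, Tnfrsf26 0.86, Havcr2 1.70, Il10ra 1.46, Il18r1 2.72, Spock2 2.46 and S100a6 2.25. Transcription and cell cycle factors gave Maf 3.11, Id2 1.34 and E2f2 1.29. Interferon-stimulated genes gave Ddx58 3.37, Oas1a 1.93 and Oasl1 2.28, and the chemokine Ccl5 gave 2.88. Markers of other cells gave Flt3 2.49, Itgam 4.66, Ly6c2 2.26 and Prf1 2.22. In stimulated cells without compound, myeloid and dendritic markers summed to 649 to 1810 CPM in WT and to 27.3 to 48.1 CPM in KO-labelled libraries. The part of this in the differences of the 46 genes was not tested. Near Nr4a1, Acvrl1 gave 3.72, Prr13 0.80 and Rarg 1.40. Metabolic and other genes gave Aldoc 2.08, Cpt1a 1.74, Dse 1.21 and Pmaip1 1.01. The negative values were small and in growth, mitochondrial and chaperone genes: Dlat -0.38, Dld -0.42, Sucla2 -0.41, Mrpl19 -0.49, Mrps22 -0.68, Mrps5 -0.43, Gar1 -0.46, Pes1 -0.42, Polr1e -0.49, Wdr12 -0.59, Pcna -0.53, Prim1 -0.77, Dnaja1 -0.33 and Hspd1 -0.58.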

How the results depend on the processing

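The count of 1173 called genes was 981 to 1687 under DESeq2 size factors, upper-quartile factors, library totals, no filter on low counts, the DESeq2 test, limma-voom, a fit of the 8 libraries alone and limma-voom with the run as a random replicate block. It was 609 with a minimum mean of 10 CPM, 511 at an adjusted p under 0.01, 235 for a test against a 1.5-fold change, and 660 to 1277 when 1 library was left out. The cause of the fall without single libraries was not tested. For stimulated and unstimulated cells the fits of those groups alone called 1438 and 2294 genes. For the genotype difference with XCT790 minus that with plain stimulation a minimum of 10 CPM gave 1733 calls, single omissions 2133 to 3652, and the run as a fixed and as a random replicate block 4369 and 4544. For the genotype difference with XCT790 minus that with CompA the fixed replicate block gave 63 calls, the random replicate block 2, DESeq2 2, and single omissions 0 to 2. Of calls in stimulated cells 41.3% were higher with DESeq2 size factors against 29%, of those in unstimulated cells 71.7% with library totals against 34.6%, and of the calls of the first of these differences 56.7% with DESeq2 size factors against 70.8%. Of the 112 called genes named by rule, 65 were called under every setting, and the others lost the call under 1 or more. Omitting 1 library ended the call most often for WT replicate 3 (40 genes), WT replicate 1 (33) and KO-labelled replicate 3 (32). Among the genes reported this held, with adjusted p of 0.23 or less, for 1110032F04Rik, Acadm, Aldoc, Bcl2l11, Birc3, Ccl17, Ccnb2, Cd226, Cd27, Cd40lg, Cpt1a, Crabp2, Dlat, Dnaja1, Dse, Egr1, Flt3, Gar1, Igj, Itgam, Lad1, Ly6c2, Mrps22, Mrps5, Nkg7, Pcna, Pes1, Polr1e, Prf1, Prim1, Tnfrsf8, Ubash3a, Ube2c and Wdr12. Nr4a1 passed with upper-quartile factors (adjusted p = 0.048), library totals (0.038), DESeq2 (0.047), the 8 libraries alone (0.021) and without KO-labelled replicate 3 (0.041). Uncalled genes changed sign: over all alternative settings Cks2 ran from -0.02 to 0.16 and Kdm5d from -0.11 to 0.05. Over the same settings Nr4a2 ran from -0.25 to 0.05 and Nr4a3 from -0.11 to 0.04. Kdm5d was 0.01 with upper-quartile factors and with the 10 CPM minimum and 0.05 with library totals. In simulated counts for this comparison, with 200 of 12239 genes changed, the test recovered 49.3% of 1.5-fold, 88.1% of 2-fold and 98.5% of 4-fold changes. The changed genes were drawn only from those above a minimum mean count, as many up as down. Libraries were drawn without correlation within runs. These shares therefore do not give the recovery for genes with low counts or for correlated libraries.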
